A study of Mus musculus with 41 samples.

Results

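Osteoblasts are the cells that lay down bone, and 10 genes of their differentiation and of mineralization were followed here through the tibiae of aged p16-INK-ATTAC mice. The 10 genes were taken by name: the transcription factors Runx2, Sp7 and Dlx5, the enzyme gene Alpl, the matrix and mineral genes Bglap, Bglap2, Ibsp, Spp1 and Sparc, and the membrane protein gene Ifitm5. All 10 were found among the 43346 genes of the count table, and all 10 passed the filter on low counts that left 19292 genes for testing. The RNA came from the tibial shafts of 41 female mice on a C57BL/6 background, centrifuged to remove marrow, with 1 bone sample sequenced per mouse. All 41 mice carried the INK-ATTAC transgene, in which the p16Ink4a promoter drives an inducible caspase, so that the drug AP20187 (AP) can kill cells that use this promoter. The groups were 12 young, 13 old + vehicle-treated and 16 old mice that received AP at 10 mg/kg, and the young mice carry the vehicle label as well. By the labels, young mice were 6 to 12 months old (the study's methods give a single age, at the lower end of that range), and old mice were dosed from 20 months over 4 months, which places their sacrifice at about 24 months. Old + AP-treated mice 18 and 19 stand apart in their tissue markers: 8 osteocyte markers summed to 307 and 308 CPM (read counts scaled to library size) there and to at least 1050 CPM in the other 14 mice of the group, and 10 skeletal muscle markers to 17900 and 8390 CPM, the lowest of the group. The calls, ratios, intervals and list counts of old + AP-treated mice are therefore also given without these 2 mice where they differ, and the part of their tissue makeup in the results was not tested.

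In the osteoblast lineage, Runx2 commits mesenchymal cells to bone formation, and Sp7 (osterix) acts after it and is needed for osteoblasts to form. Dlx5 is a homeobox factor of the same lineage. The differentiating cell then makes tissue-nonspecific alkaline phosphatase (Alpl), which removes the mineralization inhibitor pyrophosphate, and a matrix that holds osteonectin (Sparc), bone sialoprotein (Ibsp), osteopontin (Spp1) and, late in maturation, osteocalcin (Bglap and Bglap2).

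Osteocalcin gave the largest differences, and the mouse genome holds it as a cluster of near-identical genes, so the sequences are shown first. Bglap lies at chr3:88383501-88384464 and Bglap2 at chr3:88377736-88378699 in GRCm38. Below are the coding sequences of both genes (GENCODE transcripts, 5′ to 3′), with capitals at the bases where they differ.
Bglap: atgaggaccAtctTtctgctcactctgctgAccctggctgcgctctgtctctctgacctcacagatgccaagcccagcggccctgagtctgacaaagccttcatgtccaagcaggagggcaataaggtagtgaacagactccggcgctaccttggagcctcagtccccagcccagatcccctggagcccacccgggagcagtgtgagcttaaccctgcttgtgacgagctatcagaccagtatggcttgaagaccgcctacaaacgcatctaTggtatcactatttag
Bglap2: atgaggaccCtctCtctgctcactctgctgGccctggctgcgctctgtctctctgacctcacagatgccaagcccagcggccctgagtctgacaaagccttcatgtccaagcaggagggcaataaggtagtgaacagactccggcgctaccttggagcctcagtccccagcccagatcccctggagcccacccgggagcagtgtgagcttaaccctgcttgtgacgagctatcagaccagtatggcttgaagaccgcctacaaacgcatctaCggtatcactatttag
The coding sequences of 288 bases were identical at 284 bases (98.6%) and differed at 4. Of all stretches of 50 bases in the Bglap transcript, 74.7% also occurred in the Bglap2 transcript, and of all stretches of 100 bases, 56.3%. A read that lies within such a stretch matches both genes, so the separate values of Bglap, Bglap2 and the third copy, Bglap3, are uncertain and are best read as osteocalcin together.

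The promoters of Bglap and Spp1 are shown because these are the members with the largest and the smallest differences between young and old mice. Each sequence is the 250 bases before the start site in RefSeq (GRCm38.p6), 5′ to 3′ along the gene. The Bglap promoter is chr3:88384467-88384716 on the minus strand, with capitals on ACCACA at base -132 from the start site. The Spp1 promoter is chr5:104434861-104435110 on the plus strand, with capitals on AACCACA, the motif of RUNX factors, at base -129.
Bglap promoter: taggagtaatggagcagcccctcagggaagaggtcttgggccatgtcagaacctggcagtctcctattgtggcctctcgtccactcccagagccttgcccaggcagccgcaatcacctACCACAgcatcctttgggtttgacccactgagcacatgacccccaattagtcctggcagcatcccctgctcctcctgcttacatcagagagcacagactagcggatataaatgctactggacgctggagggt
Spp1 promoter: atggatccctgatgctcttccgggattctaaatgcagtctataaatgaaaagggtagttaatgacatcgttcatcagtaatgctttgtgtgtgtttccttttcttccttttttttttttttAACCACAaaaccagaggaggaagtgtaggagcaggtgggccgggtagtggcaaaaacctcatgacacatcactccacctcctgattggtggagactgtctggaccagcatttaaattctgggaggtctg
Windows of 300 bases (250 before and 50 after the start site) were given for 7 of the 10 members, 9 windows in all since a member can have more than 1 start site. On either strand, AACCACA occurred in 2 of these 9 windows (Runx2 and Spp1) and in 5.27% of 32851 promoter windows of mouse genes. The shorter ACCACA, which every AACCACA contains and which was chosen after the windows had been viewed, occurred in 4 of 9 (Bglap, Runx2, Sparc and Spp1) and in 16.8% of promoters. The GC box GGGCGG occurred in 2 of 9 (Alpl and Ifitm5) and in 35.7% of promoters. These matches are a description of the letters in the windows.

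In young tibiae the members covered a wide range of expression. Levels are given as CPM after TMM normalisation, and between genes only as CPM per kilobase of gene length. Per kilobase, Sparc stood highest in young mice, at 3110 ± 750 (SD, n = 12), followed by Bglap2 at 1750 ± 490 and Bglap at 1420 ± 445. Spp1 reached 865 ± 282 CPM per kilobase and Ibsp 743 ± 127. Those neighbours, Bglap2 with Bglap and Spp1 with Ibsp, lay within 1 SD of each other. Alpl (130 ± 23.4), Ifitm5 (81.7 ± 21.6) and Sp7 (70.0 ± 15.7) formed a lower tier of CPM per kilobase, and the neighbours Ifitm5 and Sp7 lay within 1 SD of each other. Dlx5 (14.1 ± 3.98) and Runx2 (13.3 ± 1.91) were lowest per kilobase and could not be ranked against each other. In old + vehicle-treated mice Spp1 stood at 915 ± 371 CPM per kilobase, Bglap2 at 595 ± 248, Ibsp at 473 ± 172 and Bglap at 437 ± 183. Spp1 and Bglap2 differed by less than the SD of Spp1 there, and Bglap2, Ibsp and Bglap lay within 1 SD of each other. A read can match both osteocalcin genes, so the place of each copy in both orders is uncertain. Osteocalcin as a whole was not ranked against Sparc or Spp1.

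**Figure D1:**
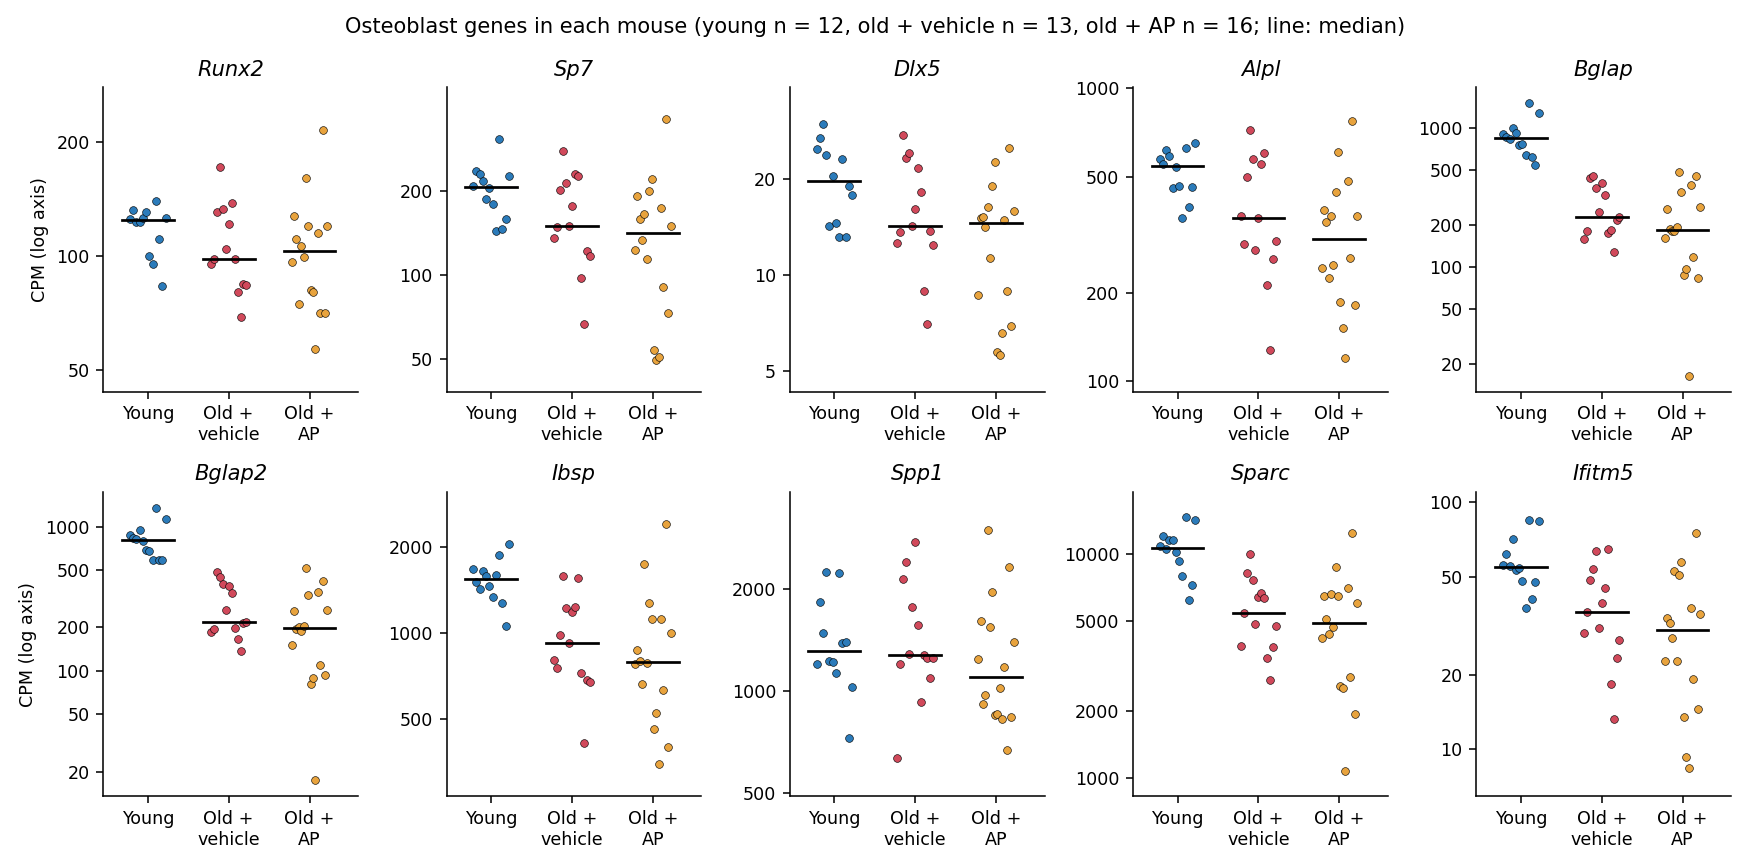
Level of the 10 members in each mouse (points, CPM on a log axis; line, group median) in the 3 groups (12, 13 and 16 mice from left to right). For Bglap and Bglap2 every old mouse lies below every young mouse, while for Runx2 and Spp1 the 3 groups cover each other.

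The comparison of old + vehicle-treated with young mice asked how the members differed with age. A gene was called at an adjusted p (edgeR's quasi-likelihood test, Benjamini-Hochberg over all 19292 genes) under 0.05 where its log2 fold change also exceeded 0.5 in either direction. In old + vehicle-treated mice 4 of 10 members were called lower and 0 higher, where 4.76% of all genes tested were called lower and 9.06% in either direction. The 4 were Bglap, Bglap2, Sparc and Ibsp, all genes of secreted matrix proteins, and none of the 3 transcription factors was among them. Spp1, also a gene of a secreted matrix protein, was not called. A difference between matrix genes and factors as classes was not tested. The median log2 fold change over the 10 members was -0.50, and over all genes tested it was 0.01. In bulk tissue, fewer cells of a type and less RNA per cell cannot be told apart.

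Bglap ranged from 537 to 1500 CPM in young mice (median 843) and from 128 to 453 CPM in old + vehicle-treated mice (median 228). All 13 old + vehicle-treated mice lay below the lowest young mouse, a separation that 0.327% of all genes tested showed in this direction. The mean fell from 880 ± 275 to 270 ± 113 CPM (SD, n = 12 and 13), a log2 fold change of -1.71 (SE 0.31, adjusted p = 0.000137), or 3.26-fold lower. Bglap2 ranged from 586 to 1340 CPM in young (median 806) and from 137 to 484 CPM in old + vehicle-treated mice (median 217). Its groups did not overlap either, and its log2 fold change was -1.55 (SE 0.30, adjusted p = 0.000319). With the counts of Bglap, Bglap2 and Bglap3 summed into 1 osteocalcin value, the log2 fold change was -1.64 (adjusted p = 0.000214).

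Sparc (chr11:55394500-55420080), osteonectin, binds collagen and calcium in the bone matrix. It ranged from 6250 to 14500 CPM in young (median 10600) and from 2740 to 9980 CPM in old + vehicle-treated mice (median 5450). The groups overlapped, but all 13 old + vehicle-treated mice lay below the young median and 7 below the lowest young mouse. The log2 fold change was -0.87 (SE 0.26, adjusted p = 0.0129). Ibsp (chr5:104299171-104311469), bone sialoprotein, nucleates mineral in the matrix. It ranged from 1060 to 2040 CPM in young (median 1540) and from 411 to 1580 CPM in old + vehicle-treated mice (median 923), and 11 of 13 lay below the young median. Its log2 fold change of -0.65 (SE 0.23, adjusted p = 0.0392) stood close to the threshold, and the call was lost without any one of 12 of the 25 mice (largest adjusted p = 0.0688) and with a score of 8 cartilage markers (mean z-score) as a covariate (-0.62, adjusted p = 0.0573).

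The other members did not pass the test against young mice, and their intervals show what size of difference these mice allowed. Ifitm5 (chr7:140948963-140950239), an osteoblast membrane protein needed for normal mineralization, ranged from 37.5 to 84.9 CPM in young (median 54.6) and from 13.3 to 65.0 CPM in old + vehicle-treated mice (median 36), with 7 of 13 below the lowest young mouse. Its log2 fold change was -0.60 (95% CI -1.15 to -0.06, adjusted p = 0.114). Alpl (chr4:137741733-137796384) ranged from 361 to 649 CPM in young (median 544) and from 128 to 719 CPM in old + vehicle-treated mice (median 361), so that the old mice spread to both sides of the young. Its log2 fold change was -0.40 (95% CI -0.88 to 0.08, adjusted p = 0.249).

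Sp7 (chr15:102356609-102366325) ranged from 144 to 307 CPM in young (median 207) and from 66.9 to 277 CPM in old + vehicle-treated mice (median 150), with a log2 fold change of -0.29 (95% CI -0.77 to 0.19, adjusted p = 0.422). Dlx5 (chr6:6877805-6882085) ranged from 13.2 to 29.9 CPM in young (median 19.7) and from 7.02 to 27.5 CPM in old + vehicle-treated mice (median 14.3), with a log2 fold change of -0.29 (95% CI -0.74 to 0.16, adjusted p = 0.39). For both factors, 9 of 13 old + vehicle-treated mice lay below the young median and 4 above it. Runx2 (chr17:44495987-44814797) ranged from 83.1 to 139 CPM in young (median 124) and from 69.0 to 171 CPM in old + vehicle-treated mice (median 98.0), with a log2 fold change of -0.12 (95% CI -0.43 to 0.19, adjusted p = 0.625). The Runx2 locus overlaps Supt3 and 3 annotated antisense genes, and since the use of strand in the counting is not given in the sources used here, reads from them may be part of this value.

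Spp1 (chr5:104435118-104441050), osteopontin, is an acidic phosphoprotein of the matrix that binds mineral and cells, and osteoclasts and macrophages make it too. It ranged from 725 to 2250 CPM in young (median 1310) and from 634 to 2770 CPM in old + vehicle-treated mice (median 1280). The groups covered each other, with a log2 fold change of 0.08 (95% CI -0.37 to 0.53, adjusted p = 0.846). Ibsp and Spp1 lie on the same chromosome and encode related phosphoproteins. The interval of Ibsp ran from -1.11 to -0.19 and overlapped that of Spp1, and the difference between these genes was not tested.

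**Figure D2:**
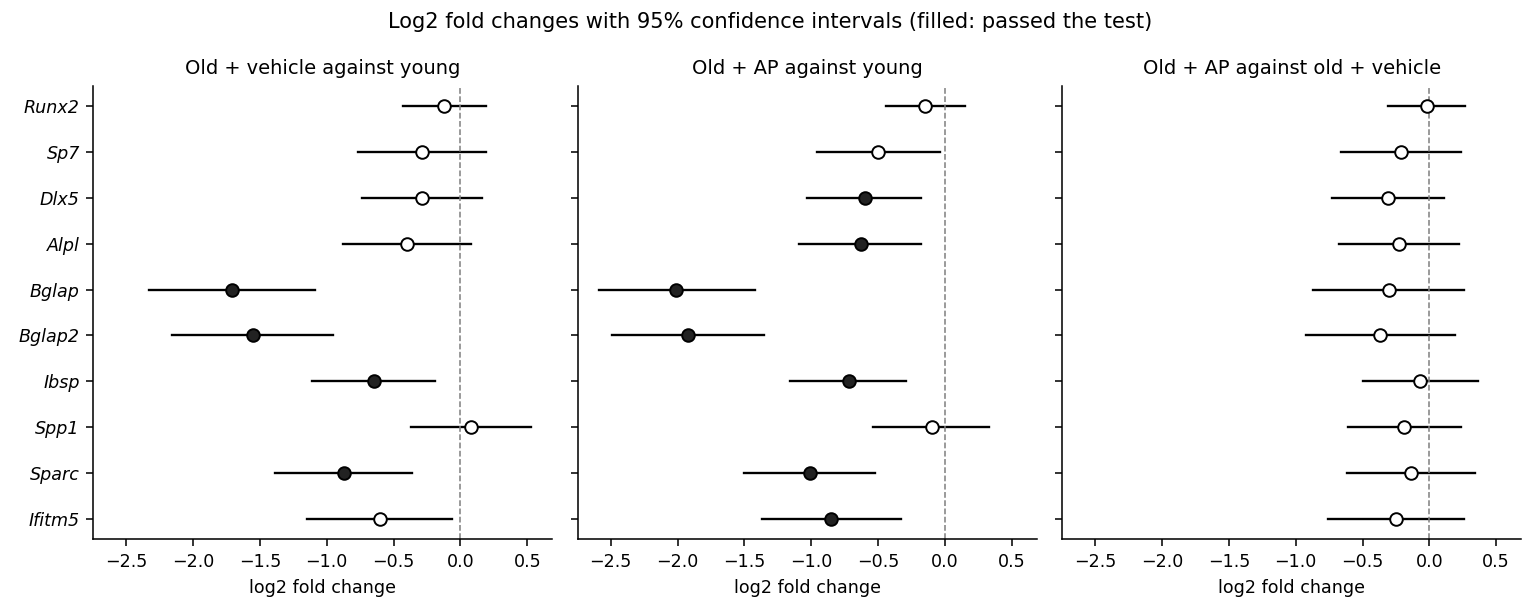
Log2 fold change (points) with its 95% confidence interval (lines) of each member in the 3 comparisons, filled where the gene passed the test. Against young mice, Bglap and Bglap2 lie farthest below 0 in both old groups, and against old + vehicle-treated mice every interval includes 0.

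The comparison of old + AP-treated with old + vehicle-treated mice asked whether the clearance of p16-expressing cells changed the members. By edgeR, 0 of 10 members were called, where 0.0726% of all genes tested (14 genes) were called. DESeq2 called 0 of 10 as well, where it called 1.25% of its tested genes (204 genes). The edgeR count over all genes ran from 0 to 405 with 1 mouse left out and rests on single mice. At an unadjusted p under 0.05 the count was also 0 of 10, where 23.9% of all genes tested stood under 0.05. All 10 log2 fold changes lay below 0, from -0.37 to -0.02, with a median of -0.22, and over all genes tested the median was 0. Without mice 18 and 19 the 10 values ran from -0.25 to 0.02, with Runx2 and Ibsp above 0, and 0 of 10 members were called. None of the members stood at an unadjusted p under 0.05 in that fit, where 13.3% of all genes tested did.

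Bglap in old + AP-treated mice ranged from 16.5 to 483 CPM (median 185), against the 128 to 453 CPM of old + vehicle-treated mice. The groups overlapped over most of this range, with 5 of 16 old + AP-treated mice below the lowest old + vehicle-treated mouse. The log2 fold change of Bglap was -0.30 (95% CI -0.87 to 0.26, adjusted p = 0.51). For Bglap2 it was -0.37 (-0.92 to 0.19, adjusted p = 0.412), the lowest value among the members, and for Dlx5 -0.31 (-0.73 to 0.11, adjusted p = 0.353). A full return of Bglap to its young level, a rise of 1.71 on the log2 scale, lay outside its interval. A partial rise of up to 0.26 lay inside it. The interval was narrowest for Runx2, whose log2 fold change was -0.02 (-0.31 to 0.27).

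For the other members, the 95% intervals of the log2 fold change between the old groups ran from -0.66 to 0.24 for Sp7, from -0.68 to 0.22 for Alpl and from -0.76 to 0.26 for Ifitm5. They ran from -0.50 to 0.36 for Ibsp, from -0.61 to 0.24 for Spp1 and from -0.62 to 0.34 for Sparc. With all 16 mice each interval includes 0 and extends farther below 0 than above it. With all 16 mice, a gain of more than 0.36 for any of these 6 members lay outside its interval. Without mice 18 and 19 the upper ends were higher, up to 0.46 for Ibsp (-0.42 to 0.46) and 0.45 for Sparc (-0.53 to 0.45), and for Bglap the interval was -0.77 to 0.38.

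Old + AP-treated mice were also compared with young mice, which are the same young mice as above, while the old + vehicle-treated mice serve in both comparisons before this one. In old + AP-treated mice 7 of 10 members were called lower than in young and 0 higher, where 4.85% of all genes tested were called lower and 8.58% in either direction. Bglap had a log2 fold change of -2.01 (SE 0.29, adjusted p = 5.84e-06) and Bglap2 of -1.92 (SE 0.28, adjusted p = 8.6e-06). All 16 old + AP-treated mice lay below the lowest young mouse for both genes, as in 0.13% of all genes tested. The log2 fold changes of the other 5 that were called were -1.01 for Sparc (adjusted p = 0.00327), -0.85 for Ifitm5 (0.0182), -0.72 for Ibsp (0.0173), -0.63 for Alpl (0.0462) and -0.60 for Dlx5 (0.0422). Without mice 18 and 19, 5 members were called lower, where 4.24% of all genes tested were called lower in that fit, with Bglap at -1.90 (adjusted p = 2.64e-05) and Sparc at -0.92 (adjusted p = 0.0103), and the calls of Alpl (-0.54, adjusted p = 0.109) and Dlx5 (-0.50, adjusted p = 0.0992) were lost.

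Set side by side for the 2 old groups against young, the log2 fold changes were -0.60 and -0.85 for Ifitm5, -0.40 and -0.63 for Alpl and -0.29 and -0.60 for Dlx5 (old + vehicle first). These 3 members passed the test in old + AP-treated mice and not in old + vehicle-treated mice, but the direct comparison of the old groups called none of them. The calls of Dlx5 and Alpl against young were lost without any one of 14 and 20 of the 28 mice, and both were lost with the cartilage covariate (-0.53, adjusted p = 0.106, and -0.58, adjusted p = 0.092). Sp7 stood at -0.50 (adjusted p = 0.119), Runx2 at -0.15 (adjusted p = 0.519) and Spp1 at -0.10 (adjusted p = 0.773). Without old + AP-treated mouse 27, Sp7 was called lower (-0.65, adjusted p = 0.0239).

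The members moved together from mouse to mouse within a group. With Sp7 as the reference, log2 CPM of 25 of 27 pairs of member and group passed a two-sided permutation test of Pearson's r (Benjamini-Hochberg over 27), which was 8 of 9 in young, 8 of 9 in old + vehicle-treated and 9 of 9 in old + AP-treated mice. By Spearman's rho the counts were 7, 8 and 9 of 9, since Ibsp in young mice did not pass (rho 0.51, adjusted p = 0.101 by the permutation test). The median r of the members was 0.867, 0.937 and 0.902 in the same order, where over all 19291 other genes tested the median r with Sp7 was 0.02, -0.007 and 0.011. An r at or above the lowest that passed among the members (0.617, 0.742 and 0.606) was reached by 5.8%, 7.26% and 12.7% of all genes tested. Without mice 18 and 19 the count was again 25 of 27. Alpl followed Sp7 closely, with r = 0.897 (Spearman's rho 0.881, adjusted p = 6.75e-05) in young, 0.971 (rho 0.901, adjusted p = 2.08e-05) in old + vehicle-treated and 0.949 (rho 0.953, adjusted p = 2.08e-05) in old + AP-treated mice. Bglap followed Sp7 with r = 0.867 (rho 0.755, adjusted p = 0.000426), 0.742 (rho 0.632, adjusted p = 0.00461) and 0.862 (rho 0.891, adjusted p = 2.08e-05) in the same order by the permutation test.

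Without the 2 mice farthest from the Sp7 median, r for Alpl was 0.914, 0.936 and 0.924, and for Bglap 0.766, 0.549 and 0.903. Spp1 was the member that followed least, with r = 0.093 (rho 0.147, adjusted p = 0.777) in young and 0.369 (rho 0.429, adjusted p = 0.223) in old + vehicle-treated mice by the permutation test. In old + AP-treated mice the r of Spp1 was 0.606 (rho 0.571, adjusted p = 0.015 by the permutation test). Without the 2 outermost mice the r of Spp1 was 0.48, 0.263 and 0.594, so that its low value in young mice rests on 2 mice. Over all 45 pairs of members, the correlation of the deviations from the group means had a median of 0.843 (41 mice), from 0.338 for Spp1 with Alpl to 0.993 for Bglap with Bglap2, whose coding sequences are nearly identical. All members of a mouse share its library and its bone sample.

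**Figure D3:**
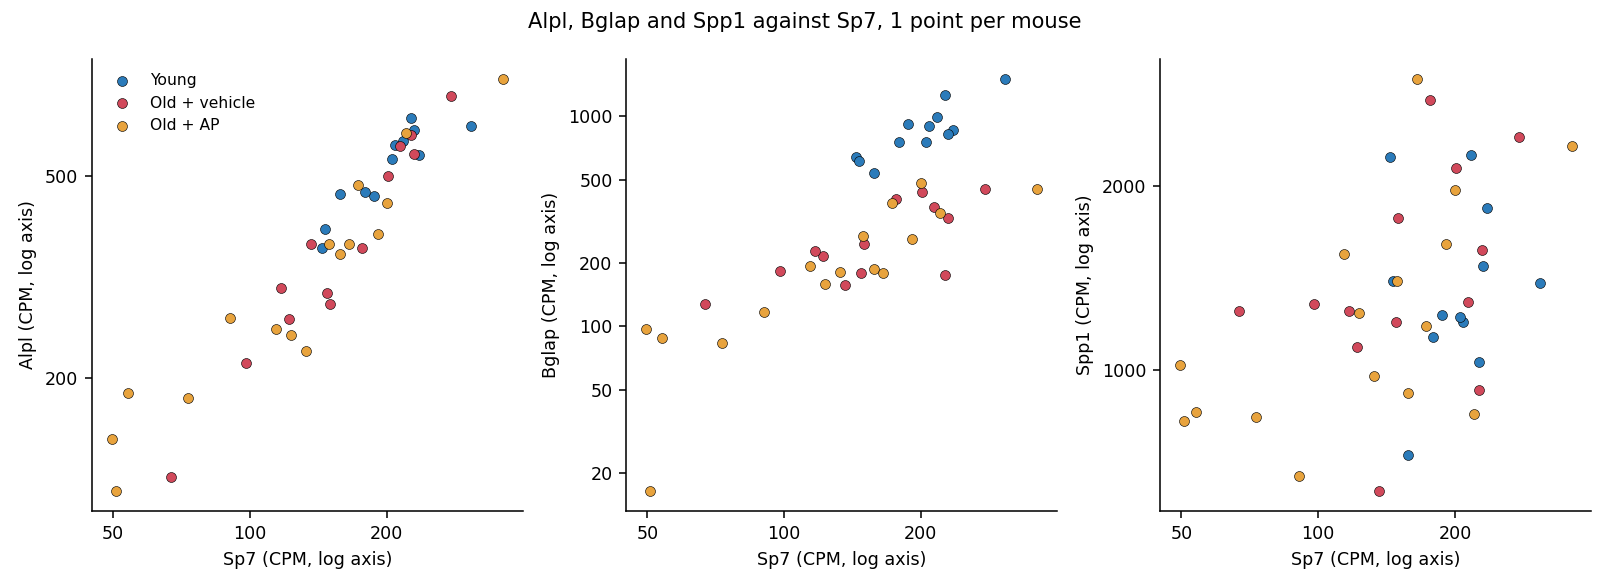
Alpl, Bglap and Spp1 against Sp7 (CPM, log axes), 1 point per mouse and 1 colour per group. Young and old mice overlap for Alpl, the old mice lie below the young at a matched Sp7 level for Bglap, and Spp1 scatters widely.

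Because the members vary together, each was also set against Sp7 within its own mouse. Such a ratio does not depend on the scaling of the library, and it shows unequal change of 2 genes, not which of them changed. To give the share of all genes beside the members, the ratios of all 19291 other genes were also tested with limma (adjusted p under 0.05 over all of them, with no fold-change threshold). In young mice the log2 ratio of Bglap to Sp7 was 2.09 ± 0.22 (SD, n = 12), from 1.76 to 2.49. In old + vehicle-treated mice it was 0.68 ± 0.43 (n = 13), from -0.36 to 1.19, so that all 13 lay below the lowest young mouse, a separation of ratios to Sp7 that 0.244% of all genes tested showed in this direction. The difference was -1.41 (permutation test, adjusted p = 5.4e-05 over 27 comparisons, from the smallest p that the resamples can give, 1e-05).

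Sparc, which overlapped between the groups in CPM, separated completely as a ratio to Sp7, but not as a ratio to Runx2 or Alpl. The log2 ratio of Sparc to Sp7 was 5.68 ± 0.17 in young (5.42 to 5.97) and 5.11 ± 0.19 in old + vehicle-treated mice (4.82 to 5.36), a difference of -0.57 (permutation test, adjusted p = 5.4e-05). With Runx2 as the reference the difference was -0.77 (adjusted p = 4.5e-05), with 8 of 13 old + vehicle-treated mice below the lowest young mouse, and with Alpl it was -0.40 (adjusted p = 0.00397), with 6 of 13 below. Bglap2 (-1.26, adjusted p = 5.4e-05), Ibsp (-0.37, adjusted p = 0.000979) and Ifitm5 (-0.34, adjusted p = 0.00111) also passed the permutation test as ratios to Sp7. The ratio to Sp7 differed by -0.16 for Alpl (adjusted p = 0.0665), by 0.02 for Dlx5 (0.846), by 0.20 for Runx2 (0.0916) and by 0.40 for Spp1 (0.18), none of which passed the permutation test.

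By the permutation test, adjusted over the members' ratios only, 5 of the 9 ratios to Sp7 differed with age. By limma, adjusted over all genes, 3 of 9 did, Bglap, Bglap2 and Sparc, all lower, where 0.793% of all genes were lower and 3.74% differed in either direction. Ibsp (adjusted p = 0.176) and Ifitm5 (adjusted p = 0.166) did not pass limma. With Runx2 as the reference 6 of 9 passed the permutation test, the same 5 and Alpl (-0.37, adjusted p = 0.0197), and 4 of 9 passed limma (Bglap, Bglap2, Ibsp and Sparc), where 5.32% of all genes did. With Alpl as the reference 4 of 9 passed the permutation test, Bglap, Bglap2 and Sparc lower and Runx2 higher (0.37, adjusted p = 0.0337). Only Bglap and Bglap2 of these passed limma with Alpl, where 14.7% of all genes did. The ratios of Bglap and Bglap2 thus passed both tests with each of the 3 references, and the calls of the other members depended on the reference or the test.

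Between the old groups 0 of 9 ratios to Sp7 passed the permutation test, with differences from -0.29 for Bglap2 (adjusted p = 0.249) to 0.26 for Runx2 (adjusted p = 0.161), and limma also passed 0 of 9, where 0% of all genes passed. With Runx2 in place of Sp7 as the reference, 1 of 9 passed, that of Bglap2 (-0.55, adjusted p = 0.031 by the permutation test; 0.748 by limma over all genes), and with Alpl 0 of 9. Old + AP-treated mice differed from young in 5 of 9 ratios to Sp7 by either test, 4 of them lower (Bglap, Bglap2, Sparc and Ifitm5), where limma found 0.995% of all genes lower, 61.8% higher and 62.7% in either direction. The ratio of Bglap to Sp7 was lower by 1.63 on the log2 scale (a difference of -1.63, adjusted p = 5.4e-05), with all 16 mice below the lowest young mouse, as in 0.114% of all genes. The ratio of Runx2 to Sp7 was higher, by 0.46 (adjusted p = 0.00481 by the permutation test), with 9 of 16 mice above the highest young mouse, but the median difference over all genes was 0.68, so a higher ratio to Sp7 is not particular to Runx2. Mice 18 and 19 had the highest log2 ratios of Runx2 to Sp7, 0.60 and 0.69, and without them the difference was 0.33 (adjusted p = 0.00891), with 7 of 14 above. The ratio of Ibsp to Sp7 did not pass with all 16 mice (-0.22, adjusted p = 0.16) and passed without mice 18 and 19 (-0.30, adjusted p = 0.0336), and the ratio of Bglap to Sp7 was then lower by 1.68 (a difference of -1.68, adjusted p = 5.4e-05).

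**Figure D4:**
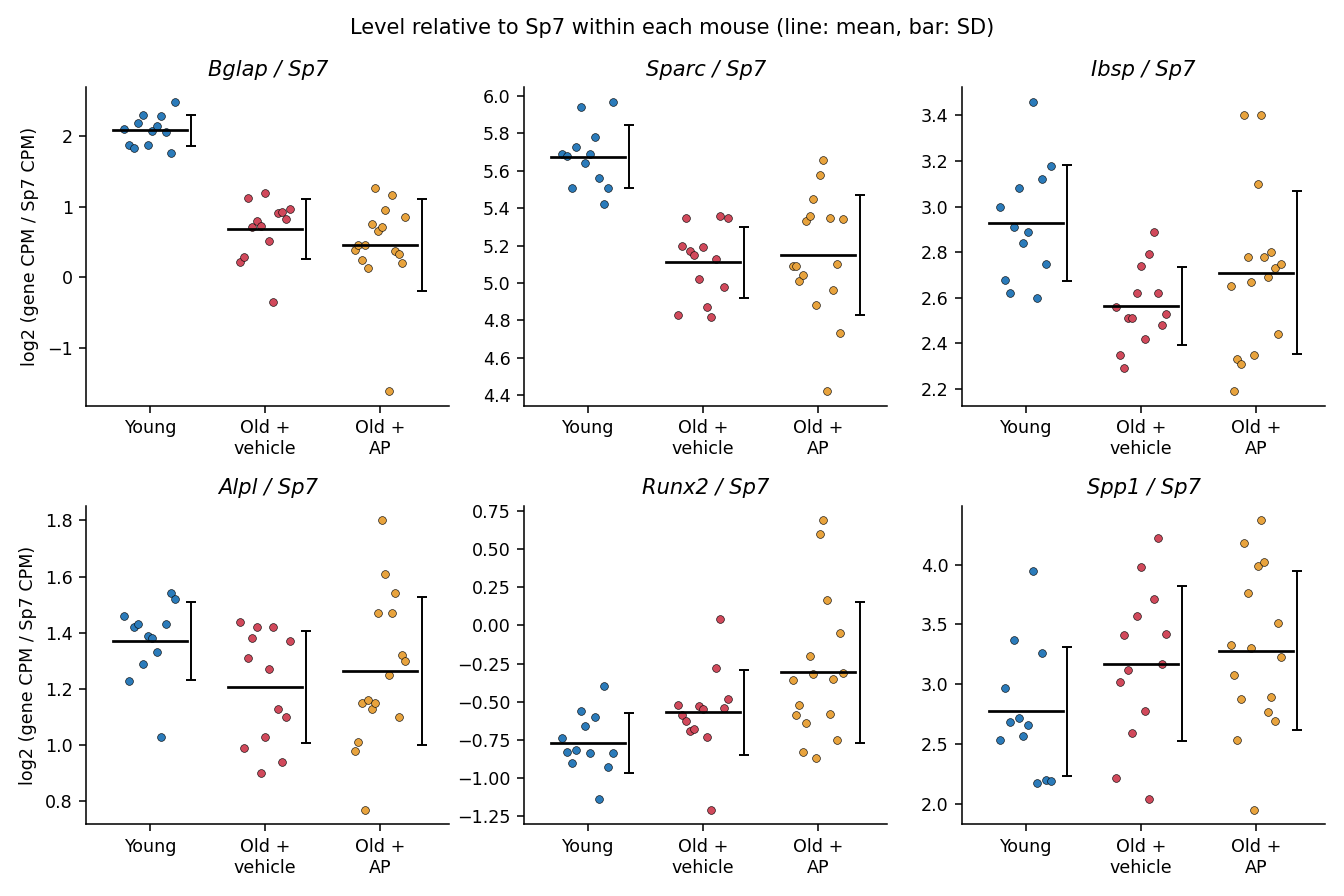
Log2 ratio of 6 members to Sp7 within each mouse (points; line, mean; bar, SD) in the 3 groups. All 13 old + vehicle-treated mice lie below all young mice for Bglap and for Sparc, and the groups overlap for Alpl, Runx2 and Spp1.

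The spread between mice was larger in old groups for every member. The SD of log2 CPM of Bglap was 0.42 in young, 0.61 in old + vehicle-treated and 1.21 in old + AP-treated mice, and that of Sp7 was 0.32, 0.57 and 0.82. For Alpl it was 0.27, 0.70 and 0.73. This order of the SDs held for 10 of 10 members, where it held for 31.1% of all genes tested, and since the members vary together these are not 10 separate observations. Without old + AP-treated mouse 24 the order held for 9 of 10 members (30.3% of all genes), since the SD of Alpl in its group was then 0.67, below that of old + vehicle-treated mice, and the SD of Bglap was 0.83. Without mice 18 and 19 it held for 10 of 10 (21.3% of all genes), with an SD of Sp7 of 0.71. None of 30 permutation tests of the SDs (10 members in 3 comparisons) passed the adjustment (lowest adjusted p = 0.0648), so the difference in spread was not established for any single member.

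Few mice set the ends of the ranges. Old + AP-treated mouse 24 was lowest of its group for 7 of 10 members and among the lowest 3 for all 10. Its Bglap level of 16.5 CPM, and 17.5 CPM for Bglap2, lay far below the other 15 mice of its group, in which Bglap ran from 83.8 to 483 CPM. The range of Bglap from lowest to highest mouse was 29.3-fold with mouse 24 and 5.76-fold without it. Its log2 ratio of Bglap to Sp7 was -1.62, the lowest of all mice. In the same mouse the summed cartilage markers (193 CPM) and osteoclast markers (1500 CPM) were the lowest of the group, and its osteocyte markers (1050 CPM) were the lowest apart from mice 18 and 19 (group median 1550 CPM). Their part in this mouse's values was not tested. Without mouse 24 the log2 fold change of Bglap between the old groups was -0.22 in place of -0.30, and against young -1.92 in place of -2.01.

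Old + AP-treated mouse 27 was highest of its group for 7 members and among the highest 3 for all 10, with 361 CPM of Sp7 and 2400 CPM of Ibsp, above all young mice for both genes. Its Bglap level still lay under the lowest young mouse. The summed osteoclast markers of mouse 27 (8500 CPM) were the highest of its group. Old + vehicle-treated mouse 21 was lowest of its group for 9 members, and mouse 7 was highest for 6 and among the highest 3 for all 10. The summed osteoclast (2040 CPM) and cartilage markers (349 CPM) of mouse 21 were the lowest of that group. Those of mouse 7 were the highest (12600 and 1790 CPM), and its skeletal muscle markers (16600 CPM) the lowest. The part of other cells in the values of mice 27, 21 and 7 was not tested. In the young group, mouse 38 was highest for 6 members and mouse 40 lowest for 5.

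Of 46 other genes of bone formation, listed by role, 45 were tested. Against young mice, 12 were called lower and 1 higher in old + vehicle-treated mice (4.76% and 4.3% of all genes tested), with a median log2 fold change of -0.35. Against old + vehicle-treated mice, 0 of 45 were called in old + AP-treated mice by edgeR, with 3 at an unadjusted p under 0.05 (0.0726% and 23.9% of all genes tested). Without mice 18 and 19 these counts were 0 and 1 (0% and 13.3% of all genes tested). Against young mice, 22 were called lower and 1 higher in old + AP-treated mice (4.85% and 3.73% of all genes tested), and without mice 18 and 19 these counts were 17 and 1 (4.24% and 2.61%).

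By role, genes of matrix and matrix assembly had 6 of 14 called lower in old + vehicle-treated mice and a median log2 fold change of -0.59, with all 14 below 0. They were Bglap3 (-1.79, adjusted p = 0.000305), Postn, a matricellular protein of the periosteum (-1.57, adjusted p = 9.87e-05), the small proteoglycans Omd (-1.16, adjusted p = 0.000105) and Ogn (-0.74, adjusted p = 0.00682), and the collagen cross-linking enzymes Plod2 (-1.06, adjusted p = 0.000223) and Lox (-0.82, adjusted p = 0.00664). Plod2 and Bglap3 did not overlap between young and old + vehicle-treated mice. Postn averaged 1050 CPM in young and 354 CPM in old + vehicle-treated mice.

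Among receptors and membrane proteins 4 of 10 were called lower, with a median log2 fold change of -0.42: the gap junction gene Gja1 (-0.99, adjusted p = 0.000554), the cadherins Cdh2 (-0.79, adjusted p = 0.00896) and Cdh11 (-0.74, adjusted p = 0.00183), and Fgfr2, a receptor of fibroblast growth factors (-0.65, adjusted p = 0.00997). Of 11 tested transcription factors and cofactors, 1 was called lower, Dlx6 (-0.58, adjusted p = 0.0476), the neighbour gene of Dlx5, and the median was -0.24. Mineral and phosphate genes were mixed, with a median of 0 over 10 genes. Among them Phex, a peptidase that restrains phosphate loss, was lower (-0.82, adjusted p = 0.0117) and Mepe, a phosphoprotein of osteocytes, was the 1 gene called higher (0.85, adjusted p = 0.0205).

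**Figure D5:**
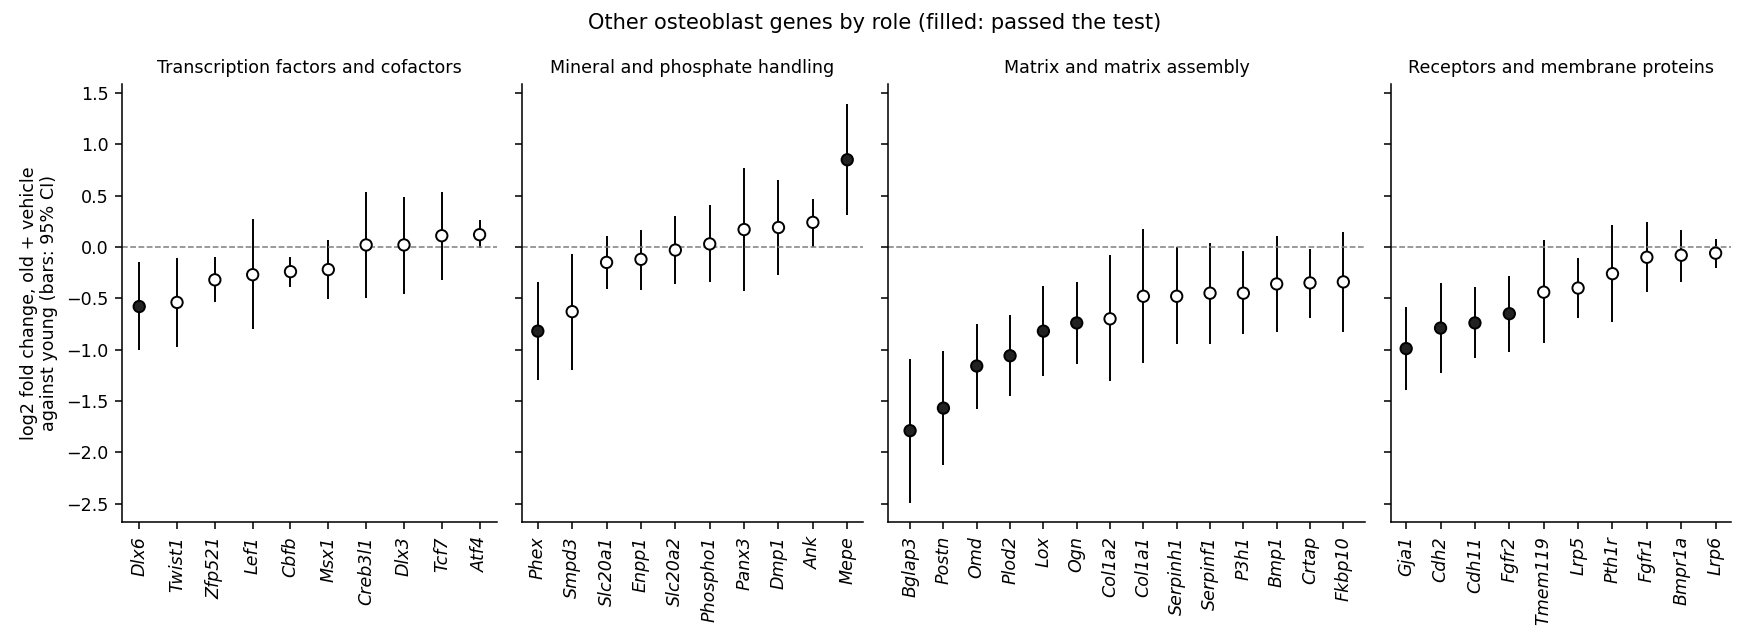
Log2 fold change with its 95% confidence interval of other osteoblast genes (1 tested gene is not drawn) in old + vehicle-treated against young mice, in 4 panels by role and filled where the gene passed the test. All 14 genes of matrix and matrix assembly lie below 0, and Mepe is the filled point above 0.

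Markers of other cells also differed between the groups, and no marker of the 8 lists was at 0 in any mouse. Osteocyte markers, which check the labelled bone, had summed medians of 1380 CPM in young, 1500 CPM in old + vehicle-treated and 1550 CPM in old + AP-treated mice, with Sost and Mepe called higher and Phex lower against young in old + vehicle-treated mice. Skeletal muscle markers had summed medians of 44200, 74300 and 51700 CPM in the same order (2 of 10 called higher in old + vehicle-treated mice). Cartilage markers had 1730, 786 and 827 CPM (2 of 8 called lower, Col2a1 and Col9a1). That sum is mostly Col2a1, with means of 1580, 726 and 577 CPM, and the summed medians of the other 7 cartilage markers were 141, 183 and 125 CPM. Sox9 averaged 2.27 CPM in young and 3.34 CPM in old + vehicle-treated mice, and Comp 110 and 159 CPM, neither of them called. Erythroid markers had 9960, 5960 and 5680 CPM (3 of 8 called lower) and B lymphocyte markers 258, 135 and 188 CPM (8 of 8 called lower).

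Osteoclast markers (3730, 3730 and 3330 CPM) and neutrophil markers (10700, 14900 and 15600 CPM) had 0 of 8 called in old + vehicle-treated against young mice, and adipocyte markers (135, 108 and 118 CPM) had 1 of 6 called in each direction. In old + AP-treated against young mice, 2 of 8 neutrophil markers were called higher (median log2 fold change 0.52), 2 of 8 cartilage (Col2a1 and Col9a1), 2 of 8 erythroid, 1 of 8 B lymphocyte and 1 of 6 adipocyte markers were called lower, and 2 of 8 osteocyte markers were called in each direction. Without mice 18 and 19, 0 of 8 neutrophil and 0 of 8 B lymphocyte markers were called there, 3 of 8 cartilage and 4 of 8 erythroid markers were called lower, and of the osteocyte markers 1 was called lower and 2 higher. The median log2 fold change of the cartilage markers was 0.57 with all 16 mice, 0.28 without mouse 18 and -0.85 without mice 18 and 19. In mouse 18 Acan stood at 259 CPM and Col10a1 at 122 CPM, against medians of 5.77 and 2.19 CPM in the other 15 mice of the group, whose highest values were 194 and 53.5 CPM. The part of these cells in the members' differences was not tested beyond the covariates that follow. With a score of skeletal muscle, of the marrow lists or of cartilage as a covariate, the log2 fold change of Bglap with age was -1.62, -1.66 and -1.69, and the call held each time. Total counts per mouse ranged from 37028959 to 75942717, and the labels name no sequencing batch, so a batch that followed age cannot be told apart from age.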

How the data were processed

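RNA from the tibiae of 41 mice was sequenced by the authors on a HiSeq2000 and mapped to mm10. The submitters' processing notes name TopHat2 2.0.6, HTSeq and GRCm38. The annotation release and the strand setting are not given in the sources used here. The authors deposited raw counts per gene, not normalized, with 1 column per mouse (0 columns without a sample) and 43346 genes. All 37 mitochondrial genes are listed at 0. Within groups, every pair of mice differed in its counts by 33 times counting variance or more. Groups follow the labels, and p-values measure the spread between mice.

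In R 4.3.3, edgeR 4.0.16 normalized the counts (TMM), kept 19292 genes by its filter (minimum count 10) and fitted a quasi-likelihood model of 3 groups. A call needed an adjusted p under 0.05 with a log2 fold change beyond 0.5 or -0.5. Relations were computed in Python 3.11.15 with NumPy 2.4.6 and SciPy 1.17.1 from log2 CPM (prior count 2), by permutation tests with 100000 resamples. Alternatives were DESeq2 1.42.0, its size factors, no fold-change threshold, no filter, models of 2 groups, a robust fit, marrow and muscle genes left out, covariates, summed osteocalcin genes and each mouse left out. The cartilage covariate, the ratios, the test of spreads, limma 3.58.1 on the ratios of all genes and the fits without old + AP-treated mice 18 and 19 were chosen after seeing the data. The members, the gene lists and the tests were chosen with earlier results of these data known. The rule for named genes took all members, each listed pathway gene called in old + vehicle-treated against young mice or between the old groups, and the 10 genes most like the members by each of 2 measures. All 117 list genes were matched, 3 of them by identifier, and 1 gene that the rule names is not reported here. In simulated counts for old + vehicle-treated against young mice, edgeR recovered 183 of 200 changed genes and called 6 unchanged genes (19157 genes), and DESeq2 recovered 187 and called 14 (19292 genes).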

Additional observations from a re-analysis of the deposited data

How the results depend on the processing

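Bglap and Sparc kept their calls against young mice in both old groups under every alternative and without any one mouse, and so did Bglap2 except where the osteocalcin genes were summed, which gives it no value of its own. The number of members called for old + vehicle-treated against young was 3 to 4 with 1 mouse left out, between the old groups it was 0 in every such fit, and for old + AP-treated against young it was 5 to 8. Of all genes, 1500 to 1975, 0 to 405 and 1416 to 1936 were called in the same fits. With 1 mouse left out, the log2 fold change of Spp1 in old + vehicle-treated against young mice ran from -0.02 to 0.16, and between the old groups that of Runx2 from -0.12 to 0.05 and that of Ibsp from -0.23 to 0. Without a filter on low counts, the calls of Ibsp (old + vehicle-treated against young, adjusted p = 0.0563), Dlx5 (0.0567) and Alpl (0.0628, both old + AP-treated against young) were lost. Ifitm5 was called in old + vehicle-treated mice in a model of 2 groups (-0.60, adjusted p = 0.0373) and with the marrow covariate (-0.76, adjusted p = 0.0458). By limma over the ratios of all genes, 3 ratios to Sp7 passed with age (old + vehicle-treated mice) in place of 5. With Runx2 in place of Sp7 as the reference, 1 ratio differed between the old groups in place of 0 by the permutation test. Between old + AP-treated and young mice, 8 differed in place of 5. Limma also passed 8 of 9 there, all lower, where 6.38% of all genes differed and 2.78% were lower. With Alpl as the reference, 6 of 9 passed the permutation test there and 5 of 9 limma, where 77.1% of all genes passed limma. Without old + AP-treated mice 18 and 19, the log2 fold changes between the old groups changed sign for Runx2 (0.02) and Ibsp (0.02), and edgeR called 0 genes of all tested there. Of the 27 relations with Sp7, 24 passed without the 2 outermost mice by Pearson's r, and by Spearman's rho 5 of 9 passed in young mice, 6 of 9 with vehicle and 8 of 9 with AP. Between the old groups 14 genes of all tested were called by edgeR with every mouse and 204 by DESeq2, and with the range above, the edgeR count rests on single mice. The causes were not tested. At the depth of these libraries counting error is small beside the spread between mice. No paired analysis was possible because the labels give each mouse its own number.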

Other observations

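Outside the members, the genes whose level followed them most closely were found by correlation with the mean z-score of the 10 members, among 15531 genes with a mean of at least 1 CPM. After the group means were removed, 9 of the 10 highest over 41 mice were Ppic (r = 0.971), Insc (0.966), Kazald1 (0.965), Col1a2 (0.964), Cd276 (0.961), Pard6g (0.961), Bmp1 (0.96), Gm22 (0.959) and Maged1 (0.959). Col1a2 encodes a chain of type I collagen, the main protein of bone matrix, and Bmp1 a protease that trims procollagen. With the group means kept, 10 genes from Kazald1 (r = 0.972) and Col1a2 (0.971) down to C1qtnf6 (0.965) were highest, and Ppic, Maged1, Gm22, Bmp1 and Insc were again among them, with Gpr133 and Cacnb3. All values are descriptions over mice that share a library for every gene, without a test. In old + vehicle-treated against young mice, Pard6g (-0.86, adjusted p = 0.00347), Kazald1 (-0.73, adjusted p = 0.0237), Ppic (-0.71, adjusted p = 0.0107), Insc (-0.70, adjusted p = 0.03), Gpr133 (-0.64, adjusted p = 0.0313) and Maged1 (-0.57, adjusted p = 0.0281) were called lower by edgeR, where 4.76% of all genes tested were. A ranking with the group means kept favours genes that fall with age as the members do. The calls of genes found that way, such as Gpr133, are partly set by their choice. Cd276 followed the members within groups and had a log2 fold change of -0.08 (adjusted p = 0.832). None of the genes named here was called between the old groups, with log2 fold changes from -0.40 for Insc to -0.10 for Gpr133.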
